A study of Mus musculus with 11 samples.

Results

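The 63 histone genes described here were the rows of a table of 22600 genes whose symbol starts with Hist (61 genes) or H1f (2 genes). No symbol of the table carried the newer H2ac, H2bc, H3c or H4c form. RNA came from whole distal tibiae, bone and marrow together, of 4 Control and 7 BMAd-DTA mice aged 24 weeks, with 1 library per mouse. All mice were C57BL6/SJL, fed ad libitum and without specific treatment, and the labels give no sex, while the study describes the mice of this experiment as male. According to the study's methods, mice of both groups carried Osterix-FLPo and the FLPo-activated Adipoq-Cre that together make the bone marrow adipocyte (BMAd) Cre. The BMAd-DTA mice also carried ROSA-DTA, a diphtheria toxin A chain that the Cre switches on in order to kill those adipocytes. Recombination by this Cre is incomplete and reaches a small subset of marrow stromal cells, so the model is a depletion rather than a full loss of the adipocytes. Because the libraries are bulk, fewer cells of a type and less RNA per cell cannot be told apart.

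Histones package DNA into nucleosomes, in which H2A, H2B, H3 and H4 form the core and H1 binds the linker. Most histone genes lie in clusters, have no introns and are transcribed in S phase, when new DNA has to be packaged. Their mRNAs end in a conserved stem-loop instead of a poly(A) tail, and the stem-loop is bound by SLBP, which serves processing, translation and decay of the message. Some of these genes can also give longer, polyadenylated transcripts, which differentiated cells are known to make. H1f0 and H1fx, both included by the rule, encode linker histones whose expression does not depend on replication, and H1f0 is known from differentiated, slowly dividing cells.

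By class the members were 7 genes of H1, 17 of H2A, 15 of H2B, 11 of H3 and 13 of H4. In the GENCODE M21 annotation of GRCm38, 50 of them lay on chromosome 13, where the large histone cluster is, 7 on chromosome 3, 3 on chromosome 11, 2 on chromosome 6 and 1 on chromosome 15. The annotation called 60 of them protein coding and 3 pseudogenes (Hist1h2aj, Hist1h2al and Hist3h2bb-ps). Another 11 annotated genes fit the same names and had no row in that table. In the separate per-library counts these 11 had between 0 and 10 counts each over all libraries.

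The stem-loop is shown first, because the levels of these genes are read against it below. The pattern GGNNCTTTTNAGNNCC was searched on the sense strand of every annotated transcript, with no search of the other strand. It was found in 41 of the 63 members (65.1%), against 89 of all 55450 annotated genes (0.161%). A match is a description of the letters, and where there was none, these letters were not in the annotated transcript. Some members without a match had short annotated transcripts, such as Hist1h4k with 312 bases of exon and Hist1h2ak with 393. A stem-loop past the annotated end would not have been found. The members shown are the 4 tested genes whose annotated transcript stops soon after the stem-loop, followed by the most abundant H1 and H4 genes that hold it. Capitals mark the 16 bases of the stem-loop and lower case the bases beside it, written 5′ to 3′ as DNA on the gene's strand.
Hist1h2ao: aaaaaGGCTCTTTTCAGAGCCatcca
Hist1h2ap: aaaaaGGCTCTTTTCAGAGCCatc
Hist1h3c: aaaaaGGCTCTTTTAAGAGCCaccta
Hist1h4h: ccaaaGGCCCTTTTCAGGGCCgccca
Hist1h1c: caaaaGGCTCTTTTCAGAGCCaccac
Hist1h4i: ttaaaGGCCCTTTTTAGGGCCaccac

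The stem-loops lie in the 3′ untranslated parts of the mRNAs, at chr13:21810898-21810913 (plus strand) for Hist1h2ao, chr13:21833029-21833044 (minus) for Hist1h2ap and chr13:23745047-23745062 (minus) for Hist1h3c. Those of Hist1h4h, Hist1h1c and Hist1h4i lie at chr13:23531458-23531473 (plus), chr13:23739512-23739527 (plus) and chr13:22040966-22040981 (minus), all in GRCm38. The form of Hist1h2ao, Hist1h2ap and Hist1h1c was the commonest, with 24 of the 41 members. The other forms were held by 7, 5, 2, 2 and 1 members. Genes with very different levels thus carried the same letters, and they differed in how far the annotated transcript runs past them. After the stem-loop the annotation adds 31 bases to Hist1h2ao, 3 to Hist1h2ap, 74 to Hist1h3c and 46 to Hist1h4h, against 840 bases in Hist1h1c and 330 in Hist1h4i.

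Few reads came from these genes. They gave 4182 to 5286 counts per library out of 16969529 to 18637663 counts on all genes, and 54395 counts over the 11 libraries. H1f0 alone held 40.7% of them and Hist1h1c 24.8%, followed by Hist1h2bc, Hist2h2be, H1fx and Hist1h4i, and these 6 genes together held 86.0%. The median member had 85 counts over all libraries together, 38 of the 63 had a mean under 10 counts per library, and 20 were at 0 in at least 1 library. The median member was at 0.720 CPM per kb of exon, where CPM is the count scaled to a common library size with TMM factors. Per kb of exon, H1f0 was at 55.3 CPM, Hist1h1c at 44.3, Hist1h2bc at 21.7, Hist1h4i at 11.9 and H1fx at 9.42. For comparison, Mcm2 to Mcm7, the subunits of the replicative helicase, had a median of 42.6 CPM per kb and the 9 measured replication-independent histone variants a median of 40.7.

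Most counts came from a few genes with longer annotated ends or no stem-loop match. The 21 members whose transcript ends 3 to 74 bases after the stem-loop held 1740 counts (3.20% of the members' counts), and the most abundant of them, Hist1h2ap, had 274 counts and 2.91 CPM per kb. Another 20 members carry the stem-loop and a longer annotated end, of 151 to 4884 bases, and held 19706 counts (36.2%). The 22 members without a match held 32949 counts (60.6%), most of them from H1f0. The typical member did not differ in this way, since the median level was 0.643 CPM per kb in the first group, 0.678 in the second and 0.976 in the third, and it was the highest members that differed (2.91, 44.3 and 55.3 CPM per kb). The limit of 100 bases between short and long ends was chosen with the annotation and the counts in view, so these shares are a description. A poly(A) signal (AATAAA or ATTAAA) within the last 50 bases of the annotated transcript was found in 15 members, and these held 82.0% of the counts. Most of that share came from H1f0 (40.7%) and Hist1h1c (24.8%), with H1fx at 4.10%. Hist1h2bc (8.97%) had no such signal. The study sequenced mRNA, and a message without a poly(A) tail is poorly kept where mRNA is selected by that tail. The selection used is not given in the sources used here, and its part in these levels was not tested.

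**Figure D1:**
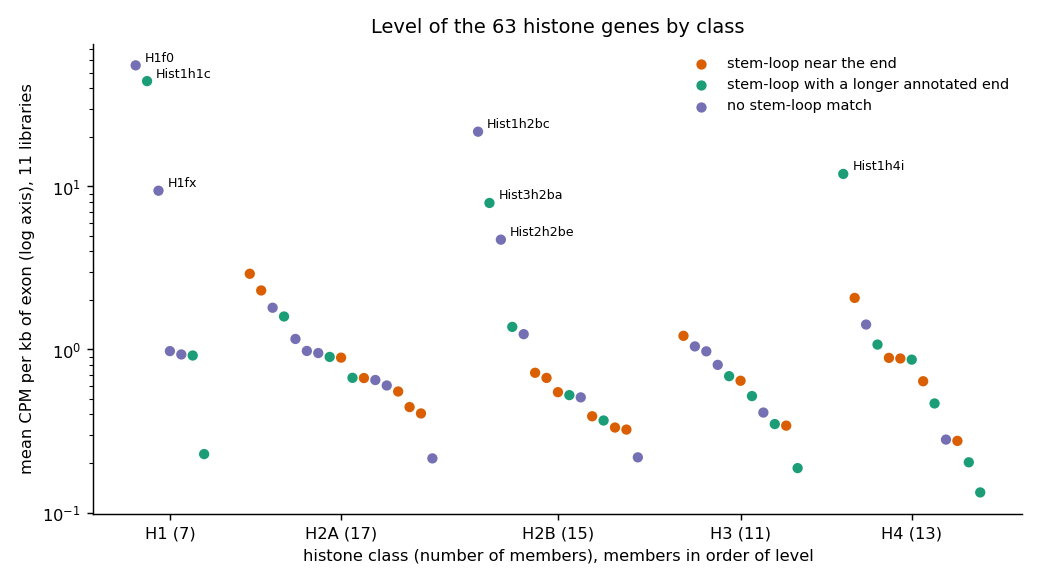
Mean level of each of the 63 histone genes over the 11 libraries, in CPM per kb of exon on a log axis, grouped by class and ordered by level within it. The members whose transcript ends near the stem-loop all lie at or below 2.91 CPM per kb, while H1f0 (55.3), Hist1h1c (44.3), Hist1h2bc (21.7) and Hist1h4i (11.9) stand above.

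Sequence identity limits single genes further. Of the 63 members, 56 share at least 1 stretch of 100 bases with transcripts of other genes, and in the median member 31.8% of such stretches were shared. Read pairs with several matches were not in the counts, and they made up 6.68% to 9.07% of the pairs of each library. The median share of such stretches was 46.4% in the members that end near the stem-loop. It was 14.55% in those with a longer annotated end and 34.45% in those without a match. The part of lost pairs in the levels of these groups was not tested. Hist1h2ao and Hist1h2ap shared 92.7% and 92.2% of their stretches, so pairs from these 2 H2A genes can be missing and their counts too low. H1f0, H1fx and Hist2h2be shared none and Hist1h1c 5.10%. Counts that ignored the strand held 18 instead of 274 counts for Hist1h2ap and 57 instead of 216 for Hist1h2ao, so the strand-specific counts were used.

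Control and BMAd-DTA mice were then compared, to see whether the histone genes follow the genes of DNA replication when marrow adipocytes are depleted. No member was called. Of the 63 genes, 27 had enough counts for the test, 11 with a higher and 16 (59.3%) with a lower level in BMAd-DTA mice, where 49.6% of all genes were lower, and in edgeR's quasi-likelihood test 0 of 27 had an adjusted p under 0.05. Over all 16496 genes tested the share called was 0.0788% (13 genes). Without adjustment, 1 of the 27 was lower at p under 0.05 and 0 higher, against 8.53% lower and 7.89% higher of all genes. DESeq2 also called 0 of the 23 members to which it gave an adjusted p, where it called 5.42% of all genes (2.64% lower and 2.78% higher), and 1 member had an unadjusted p under 0.05 there. The 2 groups overlapped in each of the 27 tested members. Of all genes tested, 1.04% were lower and 1.78% higher in BMAd-DTA mice without overlap. These shares are small, so 0 of 27 does not set the members apart from other genes.

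The median log2 fold change (BMAd-DTA minus Control) of the 27 was -0.091, and that of all genes tested was 0.0018. This small difference turned on single mice. The members' median was 0.018 without Control replicate 1, 0.030 without BMAd-DTA replicate 3 and 0.0007 without BMAd-DTA replicate 7. Precision followed abundance. The 6 members with at least 100 mean counts had log2 fold changes of -0.13 to 0.14 with SE of 0.067 to 0.19, and the other 21 had log2 fold changes of -0.78 to 0.61 with SE of 0.21 to 0.56.

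**Figure D2:**
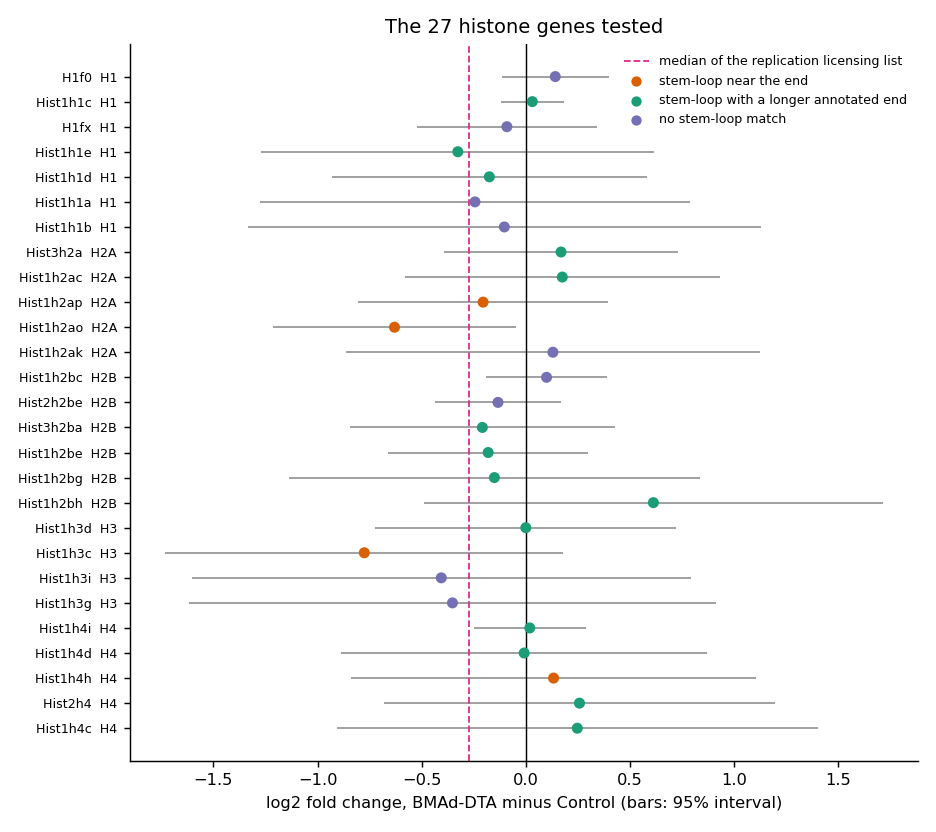
Log2 fold change (BMAd-DTA minus Control) of the 27 tested histone genes with the 95% interval of the edgeR fit, by class and, within a class, from the most to the least abundant. The dashed line is the median of the replication licensing genes (-0.27), and all intervals but that of Hist1h2ao include 0.

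Among the linker histones, H1f0 was at 116, 131, 84.4 and 95.7 CPM in the 4 Control mice and at 103 to 139 CPM in the 7 BMAd-DTA mice, with a median of 114. The groups overlapped, and 1 BMAd-DTA mouse lay above every Control mouse. The log2 fold change was 0.14 ± 0.11 (SE, adjusted p = 0.586, edgeR), and it was 0.047 without Control replicate 3 and 0.26 without Control replicate 2.

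Hist1h1c encodes H1.2, a somatic linker histone, and had the smallest SE of all members. Its level was 66.5, 70.8, 63.2 and 72.1 CPM in Control mice and 63.4 to 77.4 CPM, with a median of 70.6, in BMAd-DTA mice. The log2 fold change was 0.031 ± 0.067 (SE), with a 95% interval of -0.12 to 0.18. The interval leaves out -0.27, the median of the replication licensing genes described below. That median came from the same mice and has its own error, so the difference was not tested. H1fx, the H1.X gene, was at 11.9 ± 3.50 CPM (SD, n = 4) in Control and 11.2 ± 2.25 CPM (SD, n = 7) in BMAd-DTA mice. Hist1h1e, which encodes H1.4, was at 2.04 ± 0.555 and 1.62 ± 0.864 CPM, with BMAd-DTA mice from 0.340 to 2.98 CPM on both sides of every Control mouse.

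Of the H2A genes, Hist1h2ao had the smallest p of all members. Its level was 2.04, 1.47, 1.06 and 1.14 CPM in Control mice and 0.648 to 1.12 CPM, with a median of 0.917, in BMAd-DTA mice, from 11 to 37 counts per library. The groups overlapped, and 4 of 7 BMAd-DTA values lay under the lowest Control value. The log2 fold change was -0.63 ± 0.26 (SE), with an unadjusted p of 0.0295 and an adjusted p of 0.239 by edgeR, and it was -0.41 with an adjusted p of 0.648 without Control replicate 1. Hist1h2ap was at 2.42, 1.30, 1.06 and 1.35 CPM in Control mice and 1.08 to 1.78 CPM in BMAd-DTA mice, with every BMAd-DTA mouse inside the range of the Control mice. Hist1h2ac and Hist3h2a, H2A genes with longer annotated ends, had log2 fold changes of 0.17 ± 0.33 and 0.17 ± 0.25 (SE). That of Hist1h2ak was 0.13, and it ran from -0.12 to 0.34 when single mice were left out.

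The H2B genes held 2 of the abundant members, and neither separated the groups. Hist1h2bc, whose 1156 bases of exon spread over chr13:23684199-23692908 and so include an intron, was at 24.0, 24.4, 26.2 and 21.3 CPM in Control mice and 18.5 to 31.4 CPM, with a median of 25.1, in BMAd-DTA mice. The BMAd-DTA mice thus reached both above and below the Control mice, and the log2 fold change was 0.099 ± 0.13 (SE, adjusted p = 0.763, edgeR). Hist2h2be on chromosome 3, with 2620 bases of exon, was at 15.8, 13.1, 12.5 and 11.1 CPM in Control and 9.02 to 14.6 CPM in BMAd-DTA mice, with a log2 fold change of -0.13 ± 0.13 (SE) that was -0.033 without Control replicate 1. Hist3h2ba was at 5.32 ± 2.25 CPM (SD, n = 4) and 4.60 ± 1.32 CPM (SD, n = 7). Hist1h2bh had the highest log2 fold change of the tested members, 0.61, from 2 to 26 counts per library, and was not called.

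All 4 tested H3 genes had a log2 fold change below 0, where 49.6% of all genes did, and none was called. With the untested H3 genes included, 6 of 11 had a lower mean in BMAd-DTA mice. Hist1h3c was at 1.43, 0.648, 1.42 and 0.674 CPM in Control mice and 0.236 to 1.09 CPM, with a median of 0.470, in BMAd-DTA mice. With 4 to 26 counts per library its log2 fold change of -0.78 ± 0.42 (SE) was not called (adjusted p = 0.385, edgeR), and 4 of 7 BMAd-DTA values lay under the lowest Control value. The log2 fold changes of Hist1h3i, Hist1h3g and Hist1h3d were -0.41 ± 0.53, -0.35 ± 0.56 and -0.0005 ± 0.32 (SE). These rested on single mice. Hist1h3i ran from -0.63 without Control replicate 3 to -0.19 without Control replicate 4, and Hist1h3g from -0.70 without Control replicate 4 to -0.057 without Control replicate 1.

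Hist1h4i, the most abundant H4 gene, was at 8.49, 9.30, 8.33 and 8.30 CPM in Control mice and at 7.48 to 10.5 CPM, in BMAd-DTA mice. The medians of the groups were 8.41 and 8.40 CPM, and the BMAd-DTA mice spread to either side of the Control mice. Its log2 fold change was 0.019 ± 0.12 (SE), with a 95% interval of -0.25 to 0.29 that holds the median of the licensing genes. Hist1h4h, Hist1h4d and Hist2h4 had log2 fold changes of 0.13 ± 0.43, -0.0084 ± 0.39 and 0.26 ± 0.42 (SE). When single mice were left out, Hist1h4h ran from 0.0014 (without BMAd-DTA replicate 4) to 0.38 (without Control replicate 4) and Hist2h4 from 0.061 (without BMAd-DTA replicate 5) to 0.41 (without Control replicate 2). For these low H4 genes a difference of the size seen in the licensing genes was not detectable at this depth.

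**Figure D3:**
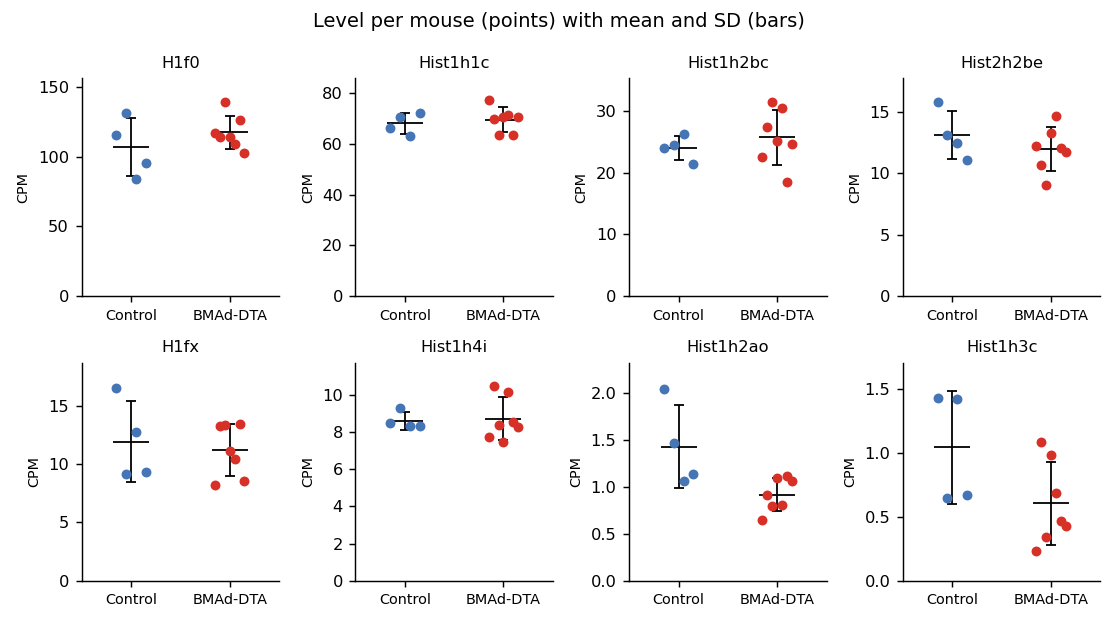
CPM of the 6 most abundant histone genes and of Hist1h2ao and Hist1h3c in every mouse (points), with the mean and SD of 4 Control and 7 BMAd-DTA mice (bars), on axes that start at 0. The groups overlap in all 8 genes, and the BMAd-DTA mean is the lower one in Hist1h2ao (1.43 and 0.920 CPM), Hist1h3c (1.04 and 0.605 CPM), Hist2h2be (13.1 and 11.9 CPM) and H1fx (11.9 and 11.2 CPM).

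Summed over all 63 genes, the level was 273 ± 24.3 CPM (SD, n = 4) in Control and 283 ± 12.6 CPM (SD, n = 7) in BMAd-DTA mice, a ratio of 1.04. The 61 genes named Hist were at 159, 155, 150 and 152 CPM in Control mice and 140 to 180 CPM, with a median of 152, in BMAd-DTA mice, a ratio of 0.999. By class the ratio was 1.06 for H1, 1.03 for H2A, 0.983 for H2B, 0.882 for H3 and 1.02 for H4, and the groups overlapped in each. A sum is ruled by its abundant genes, so the 21 genes that end near the stem-loop were also summed alone. They were at 12.5, 8.13, 8.98 and 9.38 CPM in Control mice and 6.01 to 10.5 CPM, with a median of 8.14, in BMAd-DTA mice. Their ratio was 0.864 with 3 of 7 BMAd-DTA values under the lowest Control value, and in an alternative added after seeing the data it was 0.954 without Control replicate 1. This sum rested on 106 to 227 counts per library, which carry a counting error of 6.64% to 9.71%. No test was run on these sums.

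The genes that license and start replication had lower means in BMAd-DTA mice and were better measured, with no Control mean below 13.3 CPM. All 23 licensing genes tested were lower in mean, where 49.6% of all genes were, with a median log2 fold change of -0.27. Of the 23, 16 had an unadjusted p under 0.05, where 8.53% of all genes did in that direction. In edgeR 0 of the 23 passed the adjustment, with a lowest adjusted p of 0.0675. DESeq2 called 10 of the 23 lower and 0 higher, against 2.64% and 2.78% of all genes. The summed level of the licensing genes was 2322, 1974, 1752 and 1940 CPM in Control mice and 1478 to 1821 CPM in BMAd-DTA mice. This was a ratio of 0.830, with 5 of 7 BMAd-DTA values under the lowest Control value. Control replicate 1 held the highest value, and without it the list's median was -0.17.

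Mcm2 to Mcm7 had log2 fold changes of -0.30 to -0.20 with SE of 0.084 to 0.094 and adjusted p-values of 0.111 to 0.266 by edgeR. Without Control replicate 1 those of Mcm3, Mcm4 and Mcm7 were -0.13, -0.15 and -0.20. DESeq2 called Mcm2, Mcm6 and Mcm7 lower, with adjusted p of 0.0291, 0.0453 and 0.0369. Cdc6, which loads the helicase at origins, was at 123, 107, 85.7 and 91.2 CPM in Control mice and 61.4 to 90.3 CPM in BMAd-DTA mice. In 6 of 7 BMAd-DTA mice it was under the lowest Control value, and the log2 fold change was -0.51 ± 0.12 (SE), with adjusted p-values of 0.0720 by edgeR and 0.0032 by DESeq2. Its partner Cdt1 had -0.20 ± 0.080, and Orc3, a subunit of the origin recognition complex, had the smallest difference of the list, -0.020 ± 0.058 (SE).

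Other genes that act around S phase were also lower in mean. Of 26 genes of the replication fork and nucleotide supply, 25 were lower, where 49.6% of all genes were. The median of the list was -0.21, and -0.14 without Control replicate 1. An unadjusted p under 0.05 was reached by 16 of them, all lower, against 8.53% of all genes in that direction. In edgeR 0 passed the adjustment, and DESeq2 called 2 lower, against 2.64% of all genes. Rrm2, a subunit of ribonucleotide reductase, had -0.40 ± 0.10 (SE) and Pold1, the catalytic subunit of DNA polymerase delta, 0.066 ± 0.076. Of 16 genes of G1/S control, 13 were lower, with a median of -0.16 (-0.10 without Control replicate 1), and Ccne1, cyclin E1, was the lowest at -0.48 ± 0.14 (SE). In this list 6 were lower and 2 higher at an unadjusted p under 0.05, against 8.53% and 7.89% of all genes. After adjustment edgeR called 0, and DESeq2 called 3 lower and 1 higher, against 2.64% and 2.78% of all genes. Ccne2, cyclin E2, whose kinase switches on histone transcription, was at 57.4, 48.1, 50.2 and 46.3 CPM in Control mice and 30.1 to 41.3 CPM in BMAd-DTA mice, so the groups did not overlap. Its log2 fold change was -0.48 ± 0.097 (SE), with adjusted p-values of 0.0675 by edgeR and 0.0014 by DESeq2. Cdkn1a, the kinase inhibitor p21, was the opposite, at 27.2 to 34.1 CPM in Control and 35.8 to 47.7 CPM in BMAd-DTA mice, again without overlap. Its log2 fold change was 0.47 ± 0.097 (SE), with adjusted p-values of 0.0675 by edgeR and 0.0012 by DESeq2. All 20 genes of the G2/M list were lower in mean, with a median of -0.34, and 19 had an unadjusted p under 0.05 (8.53% of all genes). DESeq2 called 14 of them lower (2.64% of all genes) and edgeR 0 after adjustment. Mki67, the proliferation marker, was at -0.56 ± 0.13 (SE, adjusted p = 0.0720, edgeR).

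The genes that make and finish histone mRNA were also examined. Of 15 tested, 14 were lower in mean (49.6% of all genes). The median log2 fold change of the list was -0.11, and 5 genes were lower at an unadjusted p under 0.05 (8.53% of all genes). In edgeR 0 passed the adjustment, and DESeq2 called 1 lower (2.64% of all genes). This was Slbp, the stem-loop binding protein, which was at 126, 109, 106 and 97.8 CPM in Control mice and 83.8 to 105 CPM, with a median of 87.6, in BMAd-DTA mice. In 6 of 7 BMAd-DTA mice it was under the lowest Control value, and the log2 fold change was -0.28 ± 0.077 (SE), with adjusted p-values of 0.106 by edgeR and 0.0307 by DESeq2. Npat, the coactivator of histone gene transcription, had -0.17 ± 0.099 (SE), and Casp8ap2, a further component of that machinery, -0.16 ± 0.071. The ends of the list were Zfp473, a zinc finger protein of the processing complex, at -0.85 ± 0.31 from a low level of 3.21 and 1.78 CPM, and Lsm10, of the U7 particle, at 0.050 ± 0.12.

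Histone chaperones carry new histones to DNA. Of 17 tested, 15 were lower in mean, where 49.6% of all genes were, and the median log2 fold change was -0.17. At an unadjusted p under 0.05, 9 were lower, against 8.53% of all genes, and 0 passed the adjustment in edgeR or DESeq2. Asf1b had -0.23 ± 0.092, Chaf1a and Chaf1b of the assembly factor CAF-1 had -0.28 ± 0.10 and -0.18 ± 0.11, and Nasp had -0.21 ± 0.099 (SE). Without Control replicate 1 the log2 fold changes of Chaf1a and Chaf1b were -0.18 and -0.057. Mms22l had the lowest log2 fold change of the list, -0.32 ± 0.13, and Hira, which deposits H3.3 outside S phase, the highest, 0.14 ± 0.12 (SE), which was 0.045 without Control replicate 4. The 9 replication-independent histone variants did not share a direction, with 5 lower and 4 higher and a median of -0.024. Cenpa, the centromeric H3, had -0.34 ± 0.10 and H2afy2, which encodes a macroH2A, 0.66 ± 0.22 (SE). Both were called by DESeq2, with adjusted p of 0.0453 and 0.0451, and not by edgeR. Of all genes, DESeq2 called 2.64% lower and 2.78% higher.

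**Figure D4:**
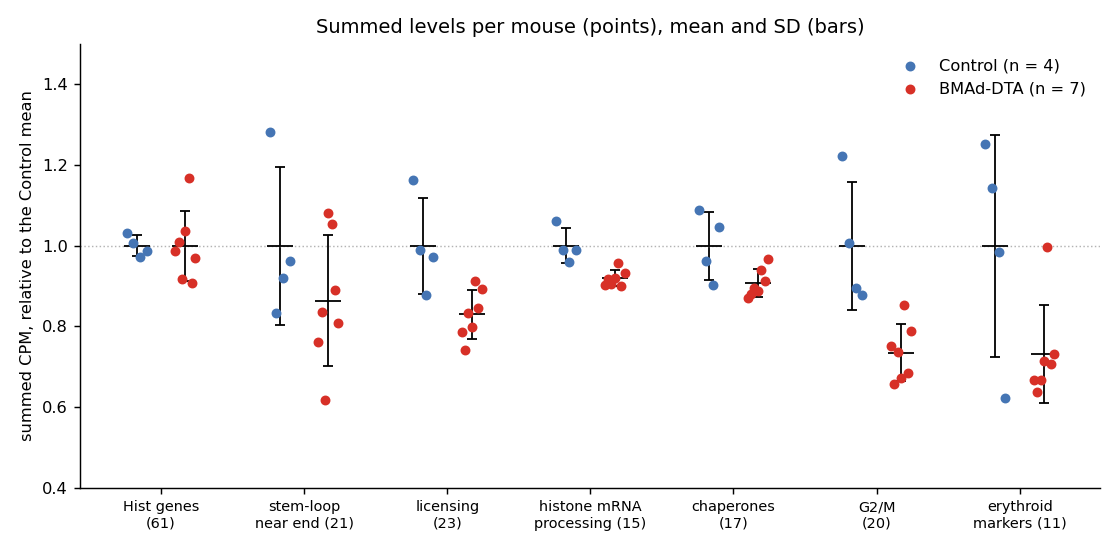
Summed CPM of each gene set in every mouse (points), divided by the Control mean of that set, with the mean and SD of 4 Control and 7 BMAd-DTA mice (bars), on an axis that starts at 0.4. The Hist genes scatter around 1 in both groups (ratio of 0.999), while the licensing (0.830) and G2/M (0.735) sums of BMAd-DTA mice lie lower, as do the erythroid markers (0.731).

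Whether the histone genes differ from the licensing genes was not tested, since both came from the same comparison of the same mice. Across the 7 BMAd-DTA mice the most abundant gene per length of each class was set against Mcm5 and Cdc6, on log2(CPM + 1), in 10 pairs. Pearson's r ran from -0.62 to 0.39 and Spearman's rho from -0.36 to 0.29. Of the 10 pairs, 4 had r above 0, and 0 had an unadjusted p under 0.05 by exact permutation, with a lowest adjusted p of 0.930. Hist1h3c had 4 to 19 counts per BMAd-DTA library and Hist1h2ap 19 to 31. With such counts and 7 mice, these pairs cannot show whether a relation is absent. The pair with the largest r in size was Hist1h3c with Mcm5, with r = -0.62 (exact permutation p = 0.140, two-sided) and rho = -0.32 (exact permutation p = 0.498). Without the 2 mice farthest from the median r was 0.88 over 5 mice, so that its sign rested on those 2 mice. In the same way r went from -0.15 to 0.86 for Hist1h3c with Cdc6 and from -0.10 to 0.84 for Hist1h4i with Mcm5, and 6 of the 10 pairs changed sign.

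The RNA levels of cell type markers differed between the libraries. The 11 measured erythroid markers, genes of cells that divide often, were all lower in mean in BMAd-DTA mice, with a summed level of 4112 to 8272 CPM in Control and 4203 to 6588 CPM in BMAd-DTA mice, a ratio of 0.731. Control replicate 4, with 4112 CPM, lay below every BMAd-DTA mouse. All 12 markers of the B lineage and all 8 of the T lineage were higher in mean, with ratios of 1.40 and 1.33. All 10 of osteoblasts and osteocytes were higher (1973 to 7874 against 9932 to 21050.5 CPM, without overlap). All 10 adipocyte markers were lower, with a ratio of 0.567. The summed levels of the B lineage, T lineage and adipocyte markers overlapped between the groups. The 8 chondrocyte markers, all higher in mean in BMAd-DTA mice, summed to 452 to 726 CPM in Control and 783 to 971 CPM in BMAd-DTA mice, without overlap and with a ratio of 1.49. The 8 markers of granulocyte progenitors, which also divide, had a ratio of 1.06 with 4 higher and 4 lower. The part of these shifts in the levels of the licensing or histone genes was not tested. The 12 skeletal muscle markers summed to 18.0 to 25.8 CPM in 4 libraries (Control replicate 4 and BMAd-DTA replicates 2, 3 and 5) and to 182 to 1351 CPM in the other 7. With a muscle score as a covariate 0 of 27 members were called, and their median log2 fold change was -0.096. Within the 4 libraries low in muscle markers, the genes named Hist summed to 152 CPM in the Control mouse and to 142, 156 and 180 CPM in the BMAd-DTA mice.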

How the data were processed

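RNA of whole distal tibiae was sequenced by strand-specific paired-end mRNA sequencing. According to the study's methods and the submitters' processing notes, the authors checked reads with FastQC 0.11.9, aligned them to mm10 with STAR and tested with DESeq2. The authors deposited raw counts of read pairs per gene, in a file per library and in a merged table that holds the same numbers as the counts on the strand of the reads. The annotation release is not given in the sources used here. Identifiers were matched without version to GENCODE M21 (GRCm38), with 22575 of 22600 found, and the symbols of all 63 members equalled the M21 names.

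The quasi-likelihood test of edgeR 4.0.16 under R 4.3.3 was run on the merged counts (filterByExpr, TMM, glmQLFit and glmQLFTest, two-sided, genotype as the only term, Benjamini-Hochberg adjustment over 16496 genes, threshold 0.05). The SE was derived from the log2 fold change and its F statistic, and 95% intervals use 9 degrees of freedom. CPM are scaled by TMM. The code was tested on simulated data. Alternatives were DESeq2 1.42.0, limma-voom (limma 3.58.1), other scalings, no filter, the per-library counts, a muscle covariate and leaving out each mouse. Counting errors and intervals of counts cover counting error only. Replicate numbers follow the order of the samples and pair nothing.

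Members, gene lists and tests were chosen with earlier results of these data known. Named members are, per class, the 3 tested genes highest per kb, those with the lowest and highest log2 fold change and the smallest p, all H1f genes and any called. Hist3h2a was also shown, outside this rule. Named others are Mcm2 to Mcm7, Cdc6, Cdt1, Slbp, Npat, Casp8ap2, Asf1b, Chaf1a, Chaf1b, Nasp, Ccne1, Ccne2, Mki67 and the lowest and highest of each list.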

Additional observations from a re-analysis of the deposited data

Results flagged for a closer look

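In 120 sets of CPM values, each a gene or sum in 1 group of mice, 3 had a sample that stood apart from its group by Dixon's test, where chance gives about 1 in 20. Hist1h2bh was at 1.49 CPM in BMAd-DTA replicate 5, and the next highest BMAd-DTA mouse was at 0.822 CPM. Without that mouse the log2 fold change of Hist1h2bh stayed above 0, as it did without each other mouse (0.31 to 0.84). Slbp was highest in the same library, BMAd-DTA replicate 5, at 105 CPM, with the next mouse at 92.4 CPM. This library also held the highest summed level of the BMAd-DTA group for the licensing genes (1821 CPM), the genes named Hist (180 CPM) and the erythroid markers (6588 CPM). Npat was lowest in Control replicate 3, at 34.6 CPM, while the other Control mice lay between 45.2 and 45.8 CPM, and without that library its log2 fold change was -0.26 instead of -0.17.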

How the results depend on the processing

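In all 20 fits 0 histone genes were called, with 0 to 2 at an unadjusted p under 0.05 and a smallest adjusted p of 0.160. The number of all genes called was less stable, at 13 in the main fit, 845 in DESeq2, 20 in limma-voom and with DESeq2 size factors, 3 with the muscle covariate, and 0 to 292 when a mouse was left out (292 without Control replicate 3, 89 without Control replicate 4, 0 without Control replicate 1 or 2 and without BMAd-DTA replicate 1 or 6, 8 and 3 without BMAd-DTA replicates 3 and 4). The summed level of all members in BMAd-DTA over Control mice stayed between 1.005 and 1.07 when a mouse was left out. Without the most abundant member, H1f0, the ratio was 0.995. The list medians kept their sign for licensing (-0.32 to -0.17), fork (-0.29 to -0.14), G1/S (-0.20 to -0.10), histone mRNA (-0.15 to -0.10), chaperones (-0.21 to -0.12) and G2/M genes (-0.39 to -0.24), and the members' own median ran from -0.14 to 0.030. Cdc6 and Cdkn1a passed the adjusted threshold in edgeR without Control replicate 3 (0.0418 and 0.0397). Some log2 fold changes turned sign, and the cause was not tested. Not all of them were near 0 in the main fit, where Hist2h4 was at 0.26, Hist3h2ba at -0.21, Hist1h2ap at -0.21 and Hist1h2ac at 0.17. In limma-voom the genes that turned were Hist1h2ak (-0.065), Hist1h3d (0.028), Hist1h4h (-0.037) and Hist1h4d (0.15). With the muscle covariate they were Hist1h2ak (-0.18), Hist1h3d (0.089), Hist1h4i (-0.024), Hist1h4d (0.042) and Hist2h4 (-0.084). In the per-library counts Hist1h3d was at 0.0022 (read strand) and 0.0015 (unstranded). Leaving out single mice gave ranges across 0 for Hist1h1c (-0.00070 to 0.059), H1fx (-0.20 to 0.11), Hist1h2ap (-0.34 to 0.10), Hist1h2ak (-0.12 to 0.34), Hist1h2ac (-0.070 to 0.37), Hist3h2ba (-0.42 to 0.050), Hist1h3d (-0.16 to 0.25), Hist1h4i (-0.031 to 0.058), Hist1h4d (-0.25 to 0.59) and Orc3 (-0.048 to 0.025). Among these, Control replicate 1 alone turned H1fx and Hist1h2ap, and Control replicate 3 alone Hist1h1c, Hist1h2ac and Hist3h2ba. Depth limits the 36 members not tested, whose mean was at most 8.45 counts per library. No paired analysis was possible because the labels give no replicate numbers.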

Other observations

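Hist1h2al, annotated as a processed pseudogene of H2A on chromosome 13, fell below the filter of the test and was chosen here after its values were seen. It had 27, 9 and 23 counts in BMAd-DTA replicates 2, 3 and 7 and 19 and 1 in Control replicates 4 and 2, and 0 in the other 6 libraries. Its variance between libraries was 15.4 times that of counting, the second largest among the members after H1f0 (31.9), although it had 79 counts in all. Reads were thus present in some mice of both groups and absent at this depth in others. In 2 genes, also chosen after their values were seen, the opposite strand held more counts than the gene's own. These were Hist2h2aa2, with 42 counts on its own and 75 on the opposite strand, and Hist4h4, with 73 and 116, over all libraries.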
